A study of Mus musculus with 60 samples.

Results

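The genes described are the protein-coding genes whose name begins with Kcn, the mouse genes for the pore-forming and auxiliary subunits of potassium channels. They were chosen by name and gene type alone, and 94 of the 55414 genes in the deposited table met the rule. A further 5 genes with such names are long noncoding RNAs and were left out. All libraries were made from medial prefrontal cortex (mPFC). The mice were of the inbred DBA2/J strain and expressed GFP-L10a, a ribosomal protein fused to a green fluorescent protein. Tagged ribosomes were collected with an anti-GFP antibody (IP), which yields RNA being translated in the tagged cells, labelled as mPFC neurons that project to the aPVT. Input libraries are bulk mPFC taken without antibody. Each fraction held 6 libraries of each of 5 groups labelled SA, SA:ANH, ANH, RES and NS, 60 libraries in all, all from the same strain. The first 4 are labelled as subtypes, the names are not spelled out, and the series describes 5 days of social defeat without saying which groups went through it. The labels give no age or sex, and do not say how the tag was brought into the neurons or from which promoter it was expressed.

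Potassium channels let potassium leave the cell, and so set the resting potential, end the action potential and limit repetitive firing. Voltage-gated Kv channels are built from several pore-forming subunits, some of which, the silent Kv subunits, form no channel alone but change the properties of Kv2 channels. Other families open with calcium (BK and SK), hold the cell near rest (inward rectifiers, Kir, and tandem-pore leak channels, K2P), or, as Kv7, carry the M current that dampens firing. Kv beta subunits and KChIPs are cytoplasmic partners of Kv1 and Kv4 channels. In cortex, pyramidal neurons, fast-spiking interneurons and astrocytes use different sets of these genes.

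The feature that the pore-forming members share is the selectivity filter, which passes potassium and holds back sodium. Its 5 codons are shown in capitals, with 15 coding bases on each side, for 4 members on which the results turn. They were read 5′ to 3′ from the longest coding sequence in GENCODE vM21 (GRCm38).
Kcna2: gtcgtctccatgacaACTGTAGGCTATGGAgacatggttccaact
Kcnma1: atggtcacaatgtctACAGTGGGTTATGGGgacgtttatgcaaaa
Kcnc2: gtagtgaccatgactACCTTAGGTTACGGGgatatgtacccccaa
Kcnh4: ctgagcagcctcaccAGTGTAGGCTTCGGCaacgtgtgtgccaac
Kcna2 and Kcnma1 were higher in the pulled-down RNA, Kcnc2 lower, and Kcnh4 differed between groups in bulk tissue, as the values that follow show. These runs lie at chr3:107105209-107105253 on the plus strand in exon 3 (Kcna2), chr14:23528398-23528442 on the minus strand in exon 8 (Kcnma1), chr10:112456214-112456258 on the plus strand in exon 3 (Kcnc2) and chr11:100750278-100750322 on the minus strand in exon 8 (Kcnh4). Of the 15 filter bases, Kcna2 shared 11 with Kcnma1 and with Kcnh4, and 10 with Kcnc2. Filters were sought as 5 codons for a fixed pattern of residues. It was threonine or serine, then valine, isoleucine or leucine, then glycine, then tyrosine or phenylalanine, then glycine. Over all members 75 of 94 matched this pattern, and 11 matched it at least 2 times. A filter with other residues is missed, so a member without a match may still hold one. All of those with at least 2 were among the 14 K2P genes, whose subunits each bring a pair of pore loops. Only 12 of these K2P genes matched at all, and Kcnk1 did not, which does not mean that it lacks a filter. Of the 15 Kir, 10 silent Kv and 8 EAG, ERG and ELK genes, each held one, whereas none of the 3 Kv beta, 4 KChIP or 5 KCNE genes did.

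Library totals were 19078906 to 27073413 counts. The labels do not say whether each library stands for its own animal, and so the p-values refer to variation among libraries alone, part of which could be technical. Markers of excitatory neurons were higher in IP than in Input (7 of 8 rose, 1 fell), and those of layer 5 extratelencephalic neurons rose in 7 of 7 tested. Layer 6 corticothalamic markers rose in 2 and fell in 5 of 7 tested. All 10 markers each of inhibitory neurons, astrocytes, oligodendrocytes, microglia and vessel cells fell, yet only Abcc9 (in NS) and Acta2 (in RES) were at 0 throughout an IP group. In Input the 6 NS libraries stood apart from the others on the first principal component. On that of IP, the SA, SA:ANH and NS libraries each lay apart from every other group, while ANH and RES overlapped. None of the libraries repeated another.

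Compared per exon length as RPKM (reads scaled to gene length and library size), the most abundant member in IP was Kcnj9, a subunit of the G-protein-gated inward rectifier that carries slow inhibition. Its level was 90.1 ± 6.91 RPKM (mean ± SD, n = 30) in IP and 64.3 ± 4.64 in Input. Next in IP came Kcnmb4, the neuronal beta subunit of BK channels, at 71.9 ± 6.35 RPKM, and Kcnh3, an ELK-type voltage-gated channel, at 63.3 ± 6.52. The SD ranges of Kcnj9 and Kcnmb4 were apart, whereas those of Kcnmb4 and Kcnh3 overlapped. Kcnh3 overlaps the protein-coding gene Mcrs1 on the opposite strand, and without strand in the counting, which the sources used here do not give, reads of such a pair cannot be told apart. In all 42 members overlap another gene and may share reads with it, 9 of them with a protein-coding one. Among those described these include Kcnip1 and Kcnmb1, which overlap each other, and Kcnab2, Kcnip4, Kcnh7, Kcnh1 and Kcnk4. Some pairs lie on the same strand, as Kcnk4 and Catsperz do, and there strand in the counting would not separate them. Kcnip3, a KChIP, followed at 47.5 ± 5.85, and was the second in Input at 65.2 ± 4.05 RPKM. By family, Kir genes summed to 159.6 ± 9.68 RPKM in IP, silent Kv genes to 114 ± 9.73, KChIPs to 104 ± 8.99 and BK with its beta subunits to 97.1 ± 5.38. Kv7 and Kv4 genes, pore families of pyramidal neurons, summed to 42.2 ± 2.76 and 24.3 ± 1.87 RPKM. KCNE genes, small membrane subunits best known from heart, summed to 0.601 ± 0.442 RPKM in IP. At the low end, Kcnj1 had 0 counts in all 60 libraries. In all 18 members in IP and 12 in Input were too low to be tested, with a highest value of 1.57 CPM (counts scaled to library size) in IP and 0.74 in Input.

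**Figure D1:**
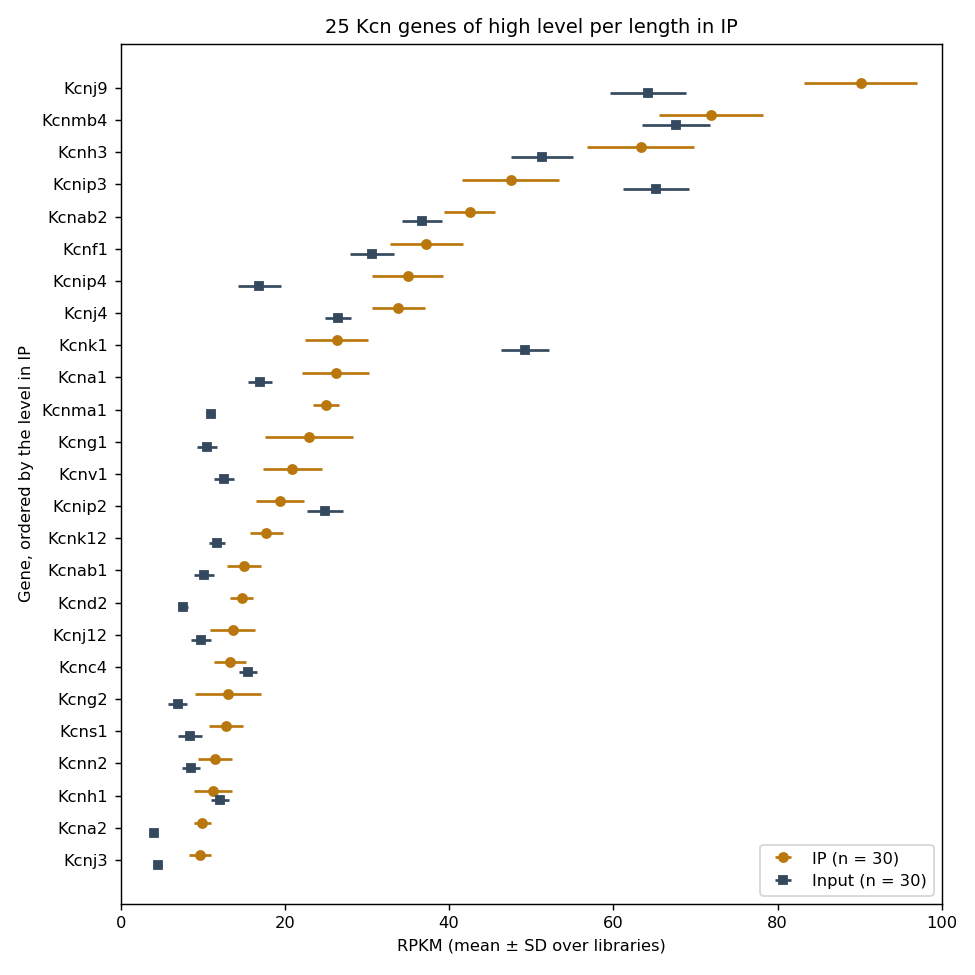
Level of 25 members of high level in IP, as RPKM per exon length on the horizontal axis (mean ± SD over 30 libraries), circles for IP and squares for Input. Kcnj9 leads in IP and Kcnmb4 in Input, and Kcnk1 is the member of this set that lies furthest to the Input side.

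The comparison of IP with Input asks which channel genes the pulled-down RNA holds more or less of than the tissue around it. Of the 83 members tested in both fractions, 76 passed at an adjusted p of 0.05, 37 higher and 39 lower in IP. Across all 18937 genes tested 75.4% passed, 32.8% higher and 42.6% lower. The median log2 fold change was 0.0058 over the members and -0.084 over all genes. Every adjusted p-value comes from the quasi-likelihood test of edgeR, with the Benjamini-Hochberg correction over all genes tested, and changes are on the log2 scale ± SE. Because both fractions are mixtures of cells, a smaller share of one cell type and less RNA per cell of that type cannot be told apart.

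Kv pore genes divided by family. Kcnb2, a Kv2 delayed rectifier, and Kcnd2 and Kcnd3 of the Kv4 family, which carries the A-type current that delays firing, rose, while the Kv3 genes Kcnc1, Kcnc2 and Kcnc4, which permit fast spiking, fell. Kcna2, an axonal Kv1 subunit, had 41.1, 46.9 and 58.6 CPM (lowest, median and highest of 30 libraries) in Input and 90.2, 114 and 142 in IP, with no overlap, and rose by 1.28 ± 0.036 (adjusted p = 2.0e-39). Its partner Kcna1 rose by 0.61 ± 0.029 (adjusted p = 1.5e-27), with 53.9, 68.8 and 77.6 CPM in Input and 78.8, 103 and 139 in IP. Every IP library was above every Input library for both. Kcnb2 rose by 1.10 ± 0.052 (adjusted p = 5.9e-28) and Kcnd2 rose by 0.96 ± 0.032 (adjusted p = 5.6e-36). In the opposite direction, Kcnc2, a Kv3 gene known from parvalbumin interneurons, had 37.6, 41.9 and 54.96 CPM in Input and 6.82, 13.6 and 27.4 in IP, again without overlap, and fell by 1.61 ± 0.053 (adjusted p = 6.3e-36). The summed level of the 10 inhibitory markers moved the same way, being 1283 to 1347 CPM in NS Input and 88.3 to 115 in NS IP, and its part in the difference was not tested.

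Among Kv7 genes, Kcnq3 had the largest rise of all members. Its levels were 11.4, 16.5 and 22.3 CPM in Input and 38.7, 46.3 and 61.4 in IP, the fractions did not overlap, and it rose by 1.54 ± 0.049 (adjusted p = 1.3e-36). Kcnq1, better known from heart and epithelia, fell by 1.76 ± 0.52 (adjusted p = 0.0021), and its counts can hold reads of the overlapping antisense RNA Kcnq1ot1. Kcnq1ot1 itself was higher in IP, at a mean of 7.34 CPM against 4.32 in Input, and its part was not tested. Of 9 silent Kv genes tested, 6 rose and 2 fell. Kcng1 rose by 1.09 ± 0.039 (adjusted p = 2.9e-34) and Kcng2 rose by 0.86 ± 0.048 (adjusted p = 2.4e-24). Kcns3, a silent subunit known from parvalbumin interneurons, fell by 1.64 ± 0.15 (adjusted p = 1.4e-14), at 4.80, 8.26 and 13.3 CPM in Input and 0.124, 2.49 and 4.98 in IP, where the fractions overlapped. Of the ERG-type genes, Kcnh7 had 17.5, 22.4 and 27.2 CPM in Input and 42.3, 50.7 and 75.3 in IP and rose by 1.27 ± 0.039 (adjusted p = 1.9e-37).

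Calcium-activated channels showed a contrast within one complex. Kcnma1, the BK pore, had 121, 134 and 145 CPM in Input and 270.4, 300.2 and 338 in IP, a gap with no overlap, and rose by 1.19 ± 0.018 (adjusted p = 9.1e-55). Its neuronal beta subunit Kcnmb4 rose by 0.085 ± 0.023 (adjusted p = 8.1e-04), which is 1.06-fold. Kcnmb1, the beta subunit of smooth muscle, had 1 count over all 30 IP libraries and 515 over the Input libraries, a ratio of 491 with a 95% counting interval of 87.7 to 19414. It overlaps Kcnip1 on the opposite strand, which was far more abundant, with means of 41.3 CPM in Input and 8.29 in IP. Kcnip1 thus fell far less steeply. Some of these counts may be reads of Kcnip1, and their part was not tested. Kcnn2, an SK channel that damps firing after a spike, rose by 0.41 ± 0.044 (adjusted p = 1.8e-12). Kcnn1 did not pass, at 0.0058 ± 0.052 (adjusted p = 0.93).

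Inward rectifiers held both steep falls and clear rises. Kcnj10, the astrocyte channel that takes up potassium released by firing, had 106, 122 and 138 CPM in Input and 1.38, 4.40 and 9.69 in IP and fell by 4.71 ± 0.090 (adjusted p = 1.3e-48). Kcnj16, which assembles with it in astrocytes, fell by 5.06 ± 0.20 (adjusted p = 3.0e-32), at 10.97, 18.1 and 22.8 CPM in Input and 0, 0.502 and 1.64 in IP. Kcnj8, the pore of the ATP-sensitive channel of vessel-wall cells, fell by 6.95 ± 0.37 (adjusted p = 2.1e-24), and its median in IP was 0. In each of ANH, RES and NS a single IP library was above 0, so the fitted size of its fall rests on values at or near 0. For these 3 genes no IP library reached any Input library. The 10 astrocyte markers all fell, their sum being 3014 to 3157 CPM in NS Input and 317 to 348 in NS IP, and so did the 10 vessel markers, which summed to 224 to 242 CPM in NS Input and 9.23 to 14.2 in NS IP. What part these had was not tested. Kcnj3, a G-protein-gated subunit, rose by 1.11 ± 0.049 (adjusted p = 1.8e-29) and its partner Kcnj9 rose by 0.49 ± 0.023 (adjusted p = 2.1e-28). Of 13 Kir genes 6 rose and 5 fell, and of 12 K2P genes 9 fell and 2 rose. Kcnk1 fell by 0.91 ± 0.030 (adjusted p = 5.6e-36), with 97.9, 109 and 123 CPM in Input and 38.2, 61.1 and 71.6 in IP. Kcnk5 had 0 counts in IP and 358 in Input, which is at least 114-fold lower against a floor of 3 counts over the IP libraries. Counting intervals and this floor cover counting error only.

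The auxiliary subunits also differed by gene. Kcnip4, a KChIP, rose by 1.05 ± 0.041 (adjusted p = 5.7e-32), with 27.1, 40.5 and 53.9 CPM in Input and 65.5, 82.7 and 113 in IP. Kcnip1, a KChIP found in interneurons, fell by 2.35 ± 0.072 (adjusted p = 1.0e-37), from 33.1, 41.3 and 48.4 CPM in Input to 3.77, 7.88 and 15.7 in IP. The fractions overlapped for neither. Kcnab3, a Kv beta subunit, fell by 2.07 ± 0.075 (adjusted p = 6.1e-34), whereas Kcnab1 rose by 0.55 ± 0.032 (adjusted p = 6.1e-24) and Kcnab2 rose by 0.21 ± 0.019 (adjusted p = 1.7e-15). Kcne1l fell by 4.37 ± 0.30 (adjusted p = 4.5e-20), with a highest IP level of 1.25 CPM.

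**Figure D2:**
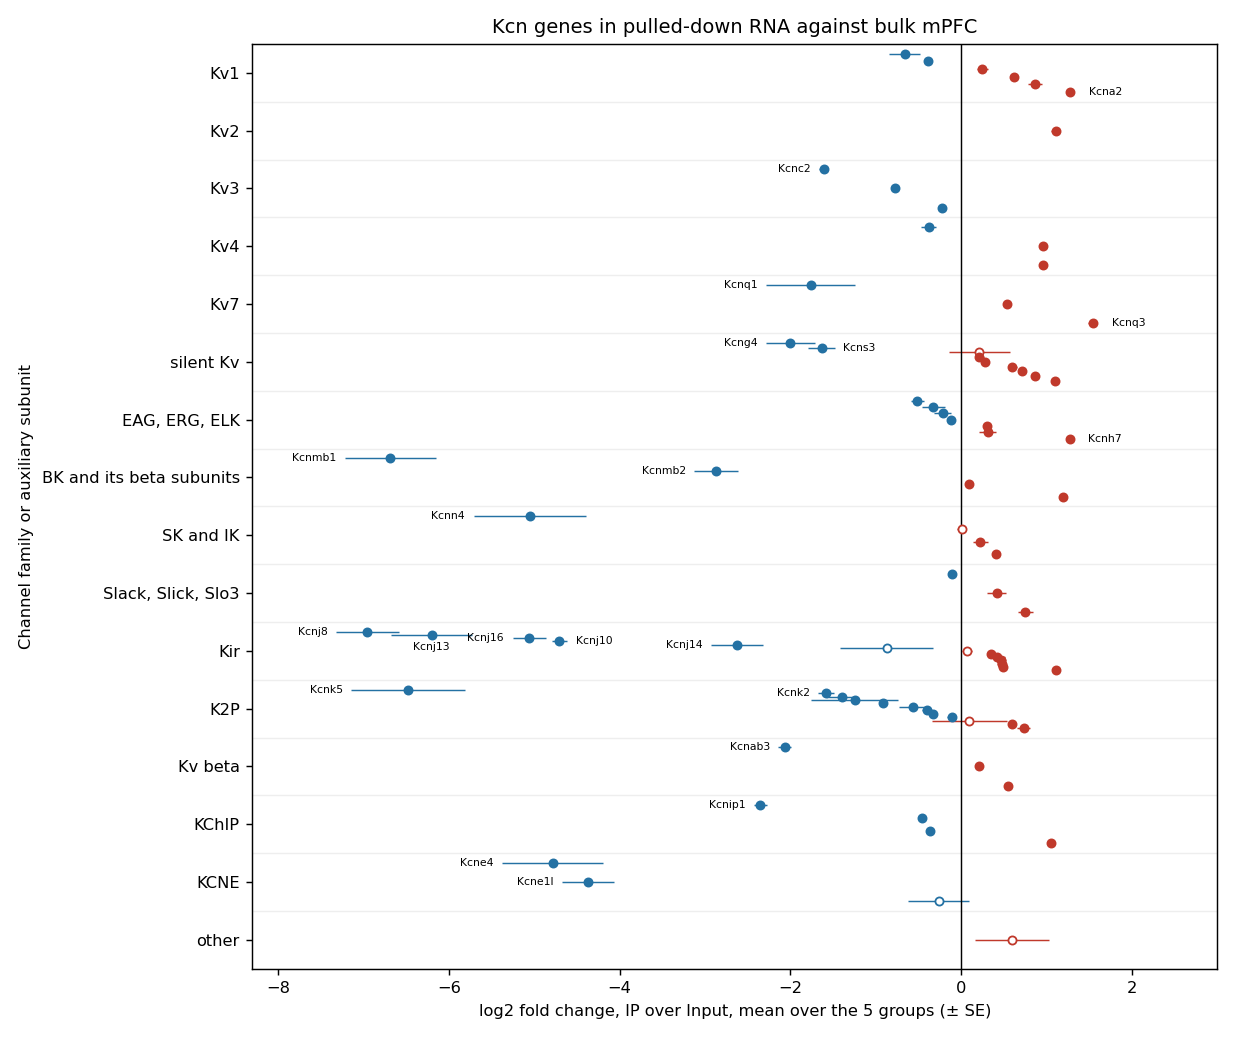
Log2 fold change of IP over Input for 79 of the 83 members tested (horizontal axis, mean over the 5 groups ± SE), by family on the vertical axis, red for higher and blue for lower in IP, open circles for the 7 that did not pass. Among the members drawn, fitted falls reach -6.95 (Kcnj8, whose IP values are at or near 0) and no rise exceeds 1.54 (Kcnq3).

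Within IP, 17 of the 76 members tested passed between SA and NS, 15 lower and 2 higher in SA. Over all 16670 genes 16.6% passed, 7.2% lower and 9.39% higher. The median was -0.18 over the members and 0.016 over all genes. The falls came from Kv1, Kv3, silent Kv, ELK, BK, Kir, K2P, KChIP and Kv beta genes, and the rises were Kcnh7 and Kcnmb4. Kcna1 had 115, 127 and 136 CPM (lowest, median and highest of 6) in NS and 84.98, 86.8 and 94.4 in SA, all SA libraries below all NS libraries, and fell by 0.53 ± 0.062 (adjusted p = 6.4e-08). Kcna3, another Kv1 gene, lay at 11.3, 15.3 and 17.6 CPM in NS and 7.56, 10.4 and 10.8 in SA, also without overlap, and fell by 0.60 ± 0.16 (adjusted p = 0.0078). The Kv3 gene Kcnc2 fell by 0.45 ± 0.15 (adjusted p = 0.038), but its ranges overlapped (11.5 to 15.99 CPM in NS, 6.85 to 12.1 in SA) and the call was lost without the filter on low counts (adjusted p = 0.053).

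Kcnv1, a silent Kv subunit, had 87.00, 91.5 and 98.01 CPM in NS and 58.8, 65.7 and 73.3 in SA and fell by 0.49 ± 0.061 (adjusted p = 2.1e-07). Kcnip2, a KChIP of the A-type channel, had 53.2, 59.1 and 64.3 CPM in NS and 42.4, 46.8 and 51.4 in SA and fell by 0.35 ± 0.066 (adjusted p = 2.5e-04). Kcnk1, a leak channel, had 60.99, 62.5 and 68.1 CPM in NS and 38.1, 49.3 and 52.3 in SA and fell by 0.43 ± 0.084 (adjusted p = 2.7e-04). In all 3 the SA libraries lay below every NS library. Kcns2, another silent subunit, fell by 0.38 ± 0.090 (adjusted p = 0.0023) with overlap. The BK pair moved apart: Kcnma1 fell by 0.15 ± 0.040 (adjusted p = 0.0091), from 288, 304 and 330.3 CPM to 271, 277 and 283, while Kcnmb4 rose by 0.30 ± 0.054 (adjusted p = 1.4e-04), from 94.5, 105 and 117 to 121, 131 and 138. Both were free of overlap. Kcnh7 was the other rise: it rose by 0.29 ± 0.086 (adjusted p = 0.015), and its ranges met (44.02 to 48.9 CPM in NS, 48.7 to 70.1 in SA). Kcna2, Kcnd2, Kcnq3, Kcnn2 and Kcnj10 did not pass, the log2 fold change of Kcnq3 being 0.17 ± 0.094 (adjusted p = 0.26).

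Other features of the SA libraries moved alongside. The 7 nuclear long noncoding RNAs summed to 1347 to 1758 CPM in SA and 406 to 451 in NS, and 6 of 7 rose. Mitochondrial genes took 0.0379 to 0.0506% of the counts in SA and 0.0177 to 0.0237% in NS. The 10 inhibitory markers summed to 66.96 to 80.6 CPM in SA and 88.3 to 115 in NS (3 fell), and the 10 astrocyte markers to 249.6 to 288 and 317 to 348 (5 fell). Excitatory markers summed to 4226 to 4826 CPM in SA and 5240.4 to 5783 in NS (3 of 8 fell), and oligodendrocyte markers to 214 to 236 and 255 to 305 (5 of 10 fell). None of these 4 sums overlapped between the groups. No marker of these lists was at 0 throughout either group. Their part in the channel genes' falls was not tested.

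In SA:ANH against NS 21 of 76 members passed, 12 lower and 9 higher, beside 19.7% of all genes (8.45% lower, 11.3% higher). The members' median was -0.028 and that of all genes 0.011. Silent Kv genes gave the clearest falls. Kcng1 had 96.02, 107 and 120.2 CPM in NS and 53.3, 57.6 and 70.7 in SA:ANH and fell by 0.86 ± 0.073 (adjusted p = 3.5e-11). Kcng2 had 39.3, 40.97 and 46.8 CPM in NS and 19.9, 24.98 and 28.7 in SA:ANH and fell by 0.78 ± 0.099 (adjusted p = 1.9e-07). Kcnf1, likewise silent alone, had 173, 197 and 213 CPM in NS and 140.0, 149 and 165 in SA:ANH and fell by 0.39 ± 0.052 (adjusted p = 4.1e-07). None of the 3 had an SA:ANH library within the NS range. Outside this family, Kcnip1 fell by 0.91 ± 0.22 (adjusted p = 0.0022), from 6.68, 9.46 and 15.4 CPM to 3.78, 6.08 and 6.58. Kcnn2 had 41.05, 46.4 and 49.7 CPM in NS and 23.8, 33.7 and 35.9 in SA:ANH and fell by 0.51 ± 0.10 (adjusted p = 2.6e-04), again with separate ranges. Kcna1 fell by 0.46 ± 0.061 (adjusted p = 4.6e-07) at 77.2, 96.96 and 98.1 CPM. Kcnj12, a strong inward rectifier, fell by 0.39 ± 0.13 (adjusted p = 0.033).

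The rises in SA:ANH included 2 further silent Kv genes. Kcnv1 had 101, 109 and 115 CPM in SA:ANH, all above NS, and rose by 0.24 ± 0.060 (adjusted p = 0.0039). Kcns1 rose by 0.35 ± 0.097 (adjusted p = 0.0077). Kcnip2 had 65.04, 70.7 and 80.1 CPM, above every NS library, and rose by 0.28 ± 0.066 (adjusted p = 0.0015). Kcnc2 had 15.6, 16.9 and 26.9 CPM in SA:ANH against 11.5, 12.4 and 15.99 in NS, overlapping at the edge, and rose by 0.50 ± 0.15 (adjusted p = 0.014). Kcnh7 rose by 0.44 ± 0.086 (adjusted p = 2.2e-04) and Kcnq5, a Kv7 gene, rose by 0.29 ± 0.076 (adjusted p = 0.0057), both without overlap. Kcnh1, an EAG-type channel, rose by 0.40 ± 0.10 (adjusted p = 0.0042) and Kcnk4, a mechanically gated K2P channel, rose by 0.36 ± 0.11 (adjusted p = 0.017), both with overlap. The 7 layer 5 extratelencephalic markers all fell, with a sum of 1248 to 1387 CPM in NS and 757 to 860.2 in SA:ANH, and 4 of 7 layer 6 corticothalamic markers fell, their sum being 401 to 458 CPM in NS and 266 to 306 in SA:ANH. The nuclear noncoding RNAs summed to 668 to 1080.2 CPM in SA:ANH (5 of 7 rose), and the oligodendrocyte markers to 149 to 182 (7 of 10 fell). Their part in the channel genes' changes was not tested.

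ANH against NS gave 10 passing members, 8 lower and 2 higher, where 7.4% of all genes passed (4.37% lower, 3.02% higher). Kcng2 fell by 0.70 ± 0.098 (adjusted p = 7.8e-06), at 22.5, 25.7 and 29.9 CPM in ANH, and Kcng1 fell by 0.43 ± 0.072 (adjusted p = 9.5e-05), at 72.6, 79.2 and 89.2, both below every NS library. Kcnj12 fell by 0.56 ± 0.13 (adjusted p = 0.0053), from 33.8, 38.6 and 52.7 CPM to 17.3, 25.1 and 37.3 with overlap. Kcna1 fell by 0.27 ± 0.061 (adjusted p = 0.0036), at 92.01, 104 and 121 CPM, where the highest ANH library was within the NS range. The rises were Kcnab1, a Kv1 beta subunit, which had 57.4, 60.6 and 64.6 CPM in NS and 74.4, 77.6 and 87.5 in ANH and rose by 0.38 ± 0.066 (adjusted p = 1.7e-04), and Kcnip4, which rose by 0.28 ± 0.076 (adjusted p = 0.018). All 6 ANH libraries were above NS for Kcnab1, while Kcnip4 overlapped. Kcnab2 and Kcnf1 also fell, each with overlap, and neither kept its call under every alternative: Kcnab2 was lost when only these 12 libraries were fitted (adjusted p = 0.067) and Kcnf1 without the filter on low counts. The layer 5 extratelencephalic markers again all fell, to a sum of 891 to 979 CPM, and the 10 oligodendrocyte markers all rose, with sums of 255 to 305 CPM in NS and 694 to 728 in ANH. Inhibitory markers summed to 152 to 173 CPM in ANH, above every NS library, and 2 of 10 rose. What part these had was not tested.

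RES against NS gave 5 passing members, 4 lower and 1 higher, a share near the 4.36% of all genes (2.11% lower, 2.25% higher). Kcna1 fell by 0.23 ± 0.061 (adjusted p = 0.023) at 97.1, 109.5 and 114 CPM, below every NS library. Kcnf1 fell by 0.25 ± 0.052 (adjusted p = 0.0020) and Kcnip4 rose by 0.29 ± 0.076 (adjusted p = 0.021), each with overlap. Oligodendrocyte markers summed to 1021 to 1137 CPM in RES and all 10 rose, inhibitory markers to 156 to 181 (2 of 10 rose) and nuclear noncoding RNAs to 548 to 608 (4 of 7 rose). Layer 5 extratelencephalic markers summed to 1137 to 1216 CPM in RES and 1248 to 1387 in NS. Excitatory markers summed to 4853 to 5103 CPM in RES and 5240 to 5783 in NS. Both sums were lower in RES without overlap. The part of any of these was not tested. The 4 comparisons with NS share the NS libraries, so the 4 values of Kcna1, for example, rest on one reference.

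**Figure D3:**
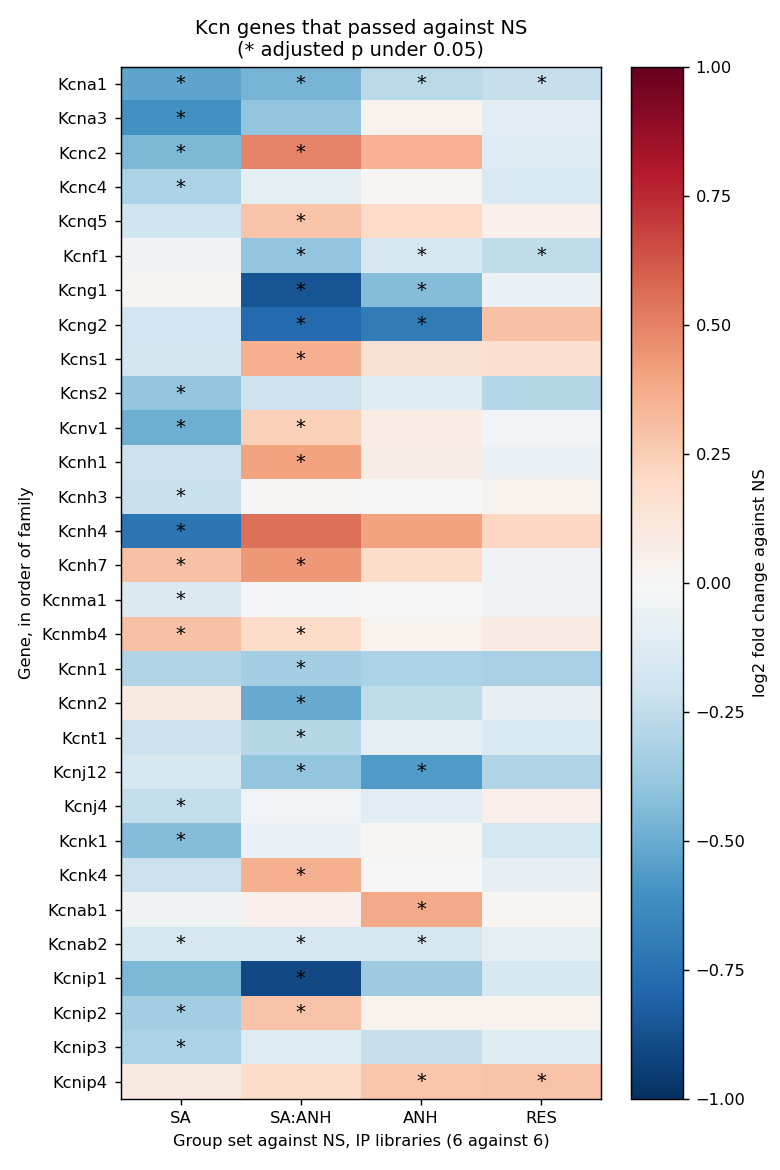
Log2 fold change against NS in IP, colour scale from -1 to 1, for members that passed in at least 1 of the 4 groups (rows in family order, asterisks for an adjusted p under 0.05). All 4 columns share the NS libraries; Kcna1 is blue throughout and Kcnv1, Kcnc2 and Kcnip2 are blue in SA and red in SA:ANH.

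Comparisons between the subtypes in IP do not use NS. Any difference among the 4 was found for 30 of 76 members, beside 29.6% of all genes. The 5 smallest adjusted p-values belonged to Kcng1 (1.2e-11), Kcng2 (6.1e-11), Kcnv1 (1.1e-10), Kcnip2 (3.9e-08) and Kcnf1 (9.0e-06) by edgeR's test, so 4 of them are silent Kv genes and the other is a KChIP. Set directly against SA, 18 members passed in SA:ANH, 14 higher and 4 lower, where 9.53% of all genes passed (4.89% higher, 4.64% lower). Lower in SA:ANH were Kcng1, which fell by 0.89 ± 0.073 (adjusted p = 1.5e-11) from 99.3, 113 and 121 CPM in SA, Kcnn2, which fell by 0.60 ± 0.10 (adjusted p = 5.8e-05), Kcng2, which fell by 0.59 ± 0.099 (adjusted p = 4.5e-05), and Kcnf1, which fell by 0.36 ± 0.052 (adjusted p = 3.8e-06). Each was free of overlap. Higher were Kcnv1, which rose by 0.73 ± 0.061 (adjusted p = 3.3e-11), Kcnip2, which rose by 0.63 ± 0.066 (adjusted p = 8.3e-09), and Kcnc2, which rose by 0.94 ± 0.15 (adjusted p = 2.4e-05). Kcnh4, an ELK-type channel of low level, had 1.35, 2.37 and 4.73 CPM in SA and 5.36, 5.77 and 8.39 in SA:ANH, just clear of each other, and rose by 1.28 ± 0.23 (adjusted p = 1.7e-04). The layer 5 extratelencephalic markers summed to 1347 to 1524 CPM in SA and 757 to 860.2 in SA:ANH (all 7 fell), and the nuclear noncoding RNAs to 1347 to 1758 and 668 to 1080.2 (5 of 7 fell). Excitatory markers, at 4226 to 4826 CPM in SA and 4973 to 5504 in SA:ANH, rose in 6 of 8. Inhibitory markers summed to 66.96 to 80.6 CPM in SA and 99.1 to 118 in SA:ANH, and astrocyte markers to 249.6 to 288 and 291 to 355. Oligodendrocyte markers summed to 214 to 236 CPM in SA and 149 to 182 in SA:ANH, and layer 6 corticothalamic markers to 451 to 501 and 266 to 306. The part of any of these was not tested.

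SA against ANH gave the most passing members of any pair of subtypes, 28 of 76, 21 lower and 7 higher in SA, beside 23% of all genes (10.2% lower, 12.8% higher). Kcnab1 fell by 0.41 ± 0.066 (adjusted p = 1.1e-05), Kcnv1 fell by 0.56 ± 0.061 (adjusted p = 7.7e-09) and Kcnk1 fell by 0.45 ± 0.084 (adjusted p = 1.0e-04), all with SA below every ANH library. In the other direction Kcng1 rose by 0.46 ± 0.072 (adjusted p = 6.5e-06) without overlap and Kcng2 rose by 0.51 ± 0.099 (adjusted p = 1.6e-04) with it. Marker sums differed without overlap between these groups too: nuclear noncoding RNAs were at 1347 to 1758 CPM in SA and 349 to 481 in ANH, and layer 5 extratelencephalic markers at 1347 to 1524 and 891 to 979. Inhibitory markers were at 66.96 to 80.6 and 152 to 173 CPM, oligodendrocyte markers at 214 to 236 and 694 to 728, and excitatory markers at 4226 to 4826 and 4972 to 5758. Their part in the members' changes was not tested. Comparisons with RES gave further calls: in SA 14 members were lower and 5 higher, where 11.6% of all genes passed (4.8% lower, 6.83% higher); in SA:ANH 7 members were lower and 8 higher, where 13.8% of all genes passed (5.61% lower, 8.21% higher); in ANH 2 members were lower and 4 higher, where 9.21% of all genes passed (5.43% lower, 3.78% higher). Kcng2 had its highest median in RES, at 47.05, 52.3 and 54.7 CPM, where its change from NS was 0.29 ± 0.097 (adjusted p = 0.082). Set against RES it fell by 1.07 ± 0.099 (adjusted p = 4.8e-10) in SA:ANH, by 0.99 ± 0.099 (adjusted p = 8.1e-09) in ANH and by 0.48 ± 0.097 (adjusted p = 6.5e-04) in SA. Kcnk2, a mechanically gated K2P channel, had 7.23, 8.40 and 12.01 CPM in RES, 2.55, 3.55 and 5.40 in SA and 1.96, 2.65 and 5.34 in SA:ANH, without overlap with RES. It fell by 1.30 ± 0.26 (adjusted p = 5.3e-04) in SA and by 1.47 ± 0.26 (adjusted p = 8.7e-05) in SA:ANH. Kcnk2 overlaps the more abundant pseudogene Pdcd5-ps on the same strand, which had means of 17.5 CPM in IP and 15.1 in Input. Whether reads of this pair were shared was not tested. Kcnj10 had 3.73, 7.64 and 9.58 CPM in RES, 1.38, 3.75 and 4.99 in SA and fell by 1.10 ± 0.32 (adjusted p = 0.021), with overlap. Astrocyte markers summed to 295 to 366 CPM in RES and 249.6 to 288 in SA. Oligodendrocyte markers summed to 1021 to 1137 CPM in RES, 214 to 236 in SA, 149 to 182 in SA:ANH and 694 to 728 in ANH. Layer 5 extratelencephalic markers were at 1137 to 1216 CPM in RES, 1347 to 1524 in SA, 757 to 860.2 in SA:ANH and 891 to 979 in ANH. Inhibitory markers were at 156 to 181 CPM in RES, 66.96 to 80.6 in SA, 99.1 to 118 in SA:ANH and, overlapping RES, 152 to 173 in ANH. The part of any of these was not tested. SA:ANH against ANH gave 11 members, beside 17.9% of all genes (7.03% lower, 10.8% higher), among them Kcng1, which fell by 0.43 ± 0.073 (adjusted p = 2.6e-05), and Kcnab1, which fell by 0.33 ± 0.066 (adjusted p = 2.6e-04). Oligodendrocyte markers summed to 149 to 182 CPM in SA:ANH and 694 to 728 in ANH, and nuclear noncoding RNAs to 668 to 1080.2 and 349 to 481. Inhibitory markers were at 99.1 to 118 and 152 to 173 CPM, and layer 5 extratelencephalic markers at 757 to 860.2 and 891 to 979. What part these had was not tested.

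**Figure D4:**
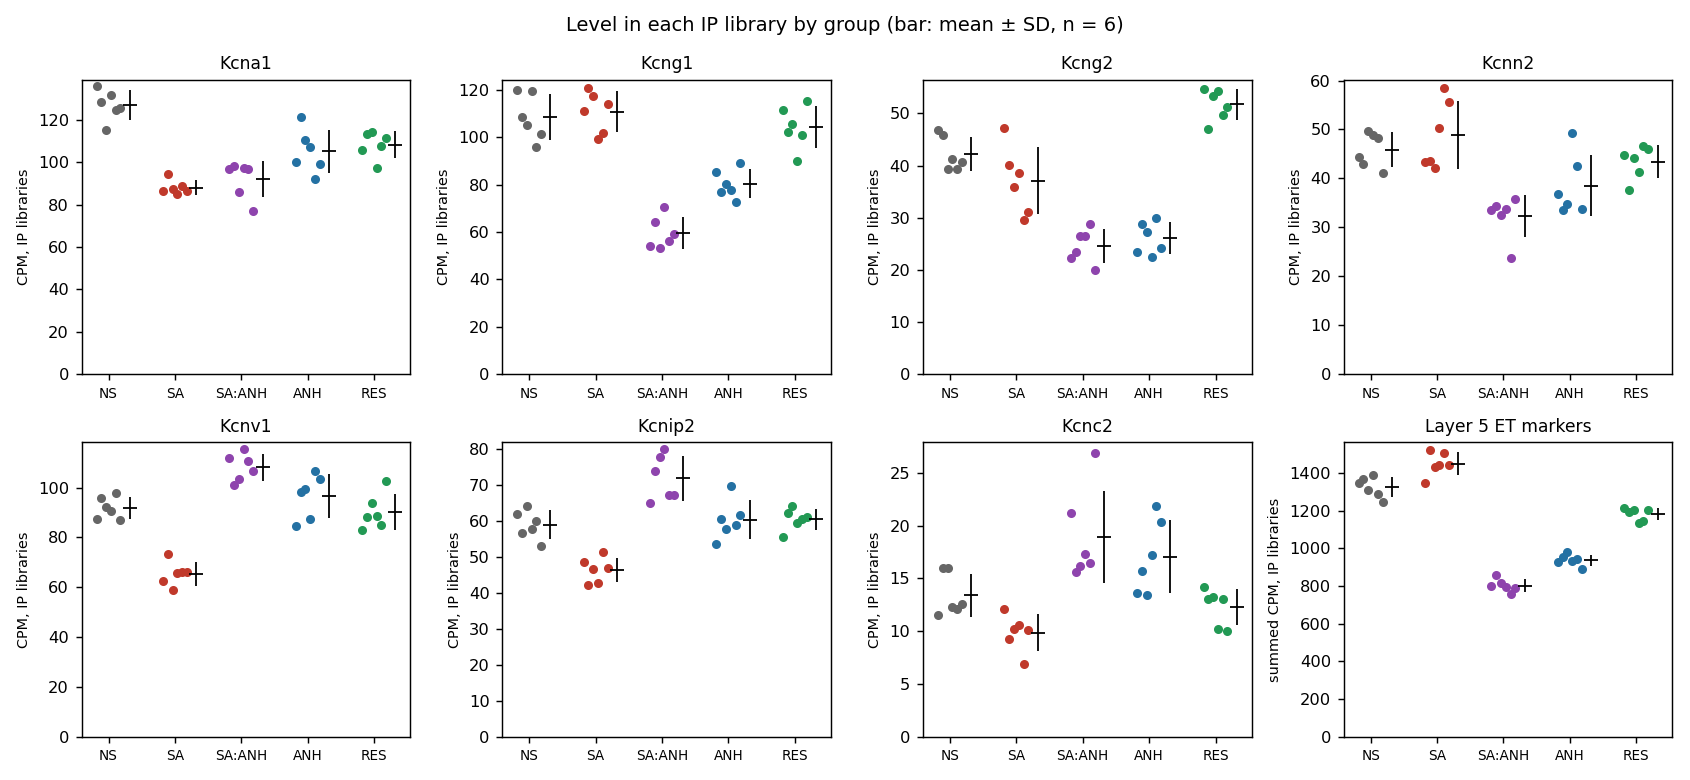
Level of 7 members in CPM, and summed CPM of the layer 5 extratelencephalic (ET) markers, in each of 30 IP libraries by group (dots; bar, mean ± SD, n = 6). Kcng1, Kcng2 and Kcnn2 are low in SA:ANH, where the marker sum is lowest, whereas Kcnv1, Kcnip2 and Kcnc2 have their lowest mean in SA and their highest in SA:ANH.

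In bulk tissue few members differed from NS. Of 82 tested, 2 were higher in SA (all genes 2.83%, 1.23% higher and 1.6% lower), and 3 were higher and 1 lower in SA:ANH (all genes 5.65%, 2.54% higher and 3.1% lower). In ANH 3 were higher (all genes 2.62%, 1.57% higher and 1.05% lower) and in RES 3 were higher (all genes 3.23%, 1.96% higher and 1.27% lower), shares near those of all genes. Kcnh4 had 1.60, 2.49 and 5.05 CPM in NS, 3.97, 6.50 and 7.33 in SA, 5.25, 5.59 and 7.62 in SA:ANH, 4.33, 6.50 and 7.36 in ANH and 4.72, 6.97 and 7.85 in RES. It rose by 1.06 ± 0.20 (adjusted p = 0.0015) in SA, by 1.06 ± 0.21 (adjusted p = 0.0014) in SA:ANH, by 1.14 ± 0.20 (adjusted p = 5.7e-04) in ANH and by 1.20 ± 0.20 (adjusted p = 2.6e-04) in RES. One NS library, at 5.05 CPM, reached into the range of SA, ANH and RES. With RES in place of NS as the reference, a choice made after the data were seen, Kcnh4 gave -0.14 in SA and SA:ANH and -0.065 in ANH, and none passed. The 6 NS Input libraries also held RNA of fat and pituitary genes: Fabp4, Ucp1, Adipoq, Cidec, Plin1 and Car3, picked after the data were seen, summed to 71.1 to 78.04 CPM there and to at most 0.922 CPM in any other Input library. Gh, Prl and Cga summed to 47.1 to 55.1 CPM in NS and to 6.02 to 8.90 in SA:ANH. The NS IP libraries held less of it, with 2.11 to 4.23 CPM of the pituitary genes and 0.174 to 1.72 of the fat genes, while the pituitary genes were at 0 in all SA and ANH IP libraries. What these add to the comparisons with NS was not tested. In IP, Kcnh4 was lowest in SA, where it fell by 0.73 ± 0.23 (adjusted p = 0.026) from 3.21, 4.35 and 5.07 CPM in NS, a value singled out after it was seen. Kcnh3 rose by 0.19 ± 0.047 (adjusted p = 0.014) in RES, Kcnj9 rose by 0.23 ± 0.043 (adjusted p = 9.2e-04) in SA:ANH and Kcnab2 rose by 0.16 ± 0.041 (adjusted p = 0.020) in SA. Among the 4 subtypes 10 of 82 members differed in Input, beside 9.44% of all genes, with Kcnab1 (adjusted p = 0.016) and Kcnip4 (0.016) giving the smallest adjusted p by edgeR's test. Oligodendrocyte markers in Input summed to 4726 to 4889.6 CPM in ANH and 3004 to 3203 in SA:ANH.

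**Figure D5:**
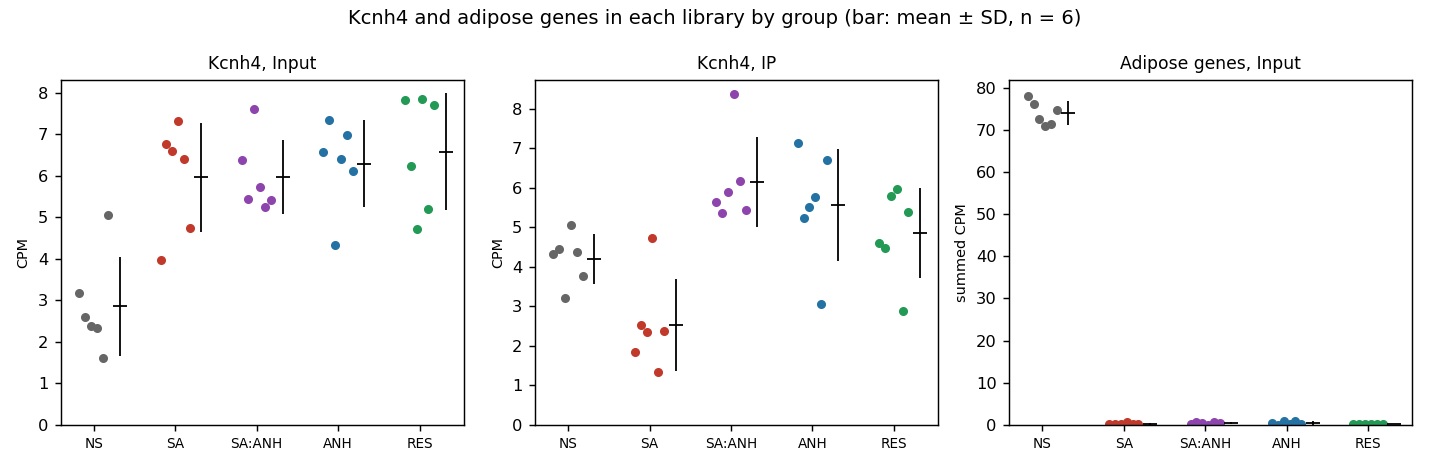
Kcnh4 in Input and in IP (CPM) and the summed CPM of 6 fat genes in Input, for each library by group (dots; bar, mean ± SD, n = 6). Kcnh4 is low in NS in Input but in SA in IP, and the fat genes are seen in the NS Input libraries.

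Whether a change in IP differed from that in Input was tested in one fit of both fractions. Of 83 members, the difference passed and was negative for 14 and positive for 1 in SA (all genes 9.05%, 4.55% negative and 4.49% positive). In SA:ANH it was negative for 13 and positive for 2 (all genes 15.2%, 8.06% negative and 7.14% positive). All 7 that passed in ANH were negative (all genes 3.62%, 1.85% negative and 1.77% positive), as were all 4 in RES (all genes 2.69%, 1.28% negative and 1.41% positive). In SA, Kcnab2 was at -0.37 ± 0.060 (log2 change in IP minus that in Input, adjusted p = 1.0e-05) and Kcnip2 at -0.49 ± 0.090 (1.0e-04). In SA:ANH the smallest adjusted p-values belonged to Kcng1, at -0.85 ± 0.12 (4.1e-07), and Kcnf1, at -0.51 ± 0.079 (1.7e-06). In Input, Kcng1 had 41.5 to 47.3 CPM in NS and 38.4 to 55.05 in SA:ANH. The NS Input libraries that stand apart enter all of these differences. With RES as the reference 9 members passed in SA, 11 in SA:ANH and 2 in ANH. Kcng1 in SA:ANH then kept its call, at -0.73, while Kcnab2 in SA and Kcnf1 in SA:ANH lost theirs, at -0.15 and -0.14.

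Of 25 genes for proteins that bind or traffic these channels and carry other names, 22 were tested in IP. Between SA and NS 4 rose and 6 fell, and between SA:ANH and NS 4 rose and 3 fell. Over all genes 9.39% rose and 7.2% fell in SA, and 11.3% and 8.45% in SA:ANH. In ANH 2 rose and 1 fell (7.4% of all genes passed), and in RES the 1 that passed, Dlg1, a scaffold of the synapse, fell by 0.28 ± 0.081 (adjusted p = 0.038), beside 4.36% of all genes. Dpp10, a membrane subunit of Kv4 channels, rose by 0.20 ± 0.051 (adjusted p = 0.0045) in SA, by 0.24 ± 0.051 (adjusted p = 5.7e-04) in SA:ANH and by 0.33 ± 0.051 (adjusted p = 3.4e-05) in ANH. Lrrc55, a gamma subunit of BK channels, fell by 1.04 ± 0.17 (adjusted p = 2.8e-05) in SA. Against Input, where 75.4% of all genes passed, all 23 tested did, 12 higher and 11 lower in IP, and Adam22, a partner of axonal Kv1 channels, rose by 0.94 ± 0.027 (adjusted p = 6.3e-39).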

How the data were processed

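RNA-seq libraries of IP and Input from 5 groups (6 each) were used as deposited: a table of expected counts per gene, estimated counts that need not be whole (88.4% were whole within 1e-06), which the authors left unnormalized. Per the submitters' processing notes, the tools were Trimmomatic 0.32, TopHat2 2.0.13 and Bowtie2 2.2.3, with mm10. Which tool counted the reads, whether it used strand, and the build of the table's gene positions were not given in the sources used here. Those positions served only to find overlapping genes.

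Counts were rounded and tested with edgeR 4.0.16 in R 4.3.3 (quasi-likelihood test, TMM factors, filterByExpr with a minimum count of 10, Benjamini-Hochberg adjustment at 0.05), separately in IP (16670 genes), Input (18170) and both (18937), with groups as the only term. CPM values use the TMM factors of the fit they accompany, and RPKM the table's gene lengths. Totals of 19078906 to 27073413 counts and a biological coefficient of variation of 23.7% in IP and 18.6% in Input set the precision. Alternatives were RLE factors, DESeq2 1.42.0, limma 3.58.1 (voom with quality weights), no filter, the replicate number as a block, fits of the 12 libraries compared, and RES as the reference. In fits of both fractions the block was group and replicate number together. The test was checked on simulated data.

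Named members were, per comparison, up to 8 rises and 8 falls of largest size among those that passed with a mean of at least 5 CPM in the higher group, 10 fixed members, and the 5 smallest adjusted p-values of the tests of any difference and of IP minus Input. Lists were channel families, 25 partner genes, nuclear noncoding RNAs and markers of cell types. Members and lists were chosen with earlier results of these data known. Some members and a sequence are not reported here by name, in the text or in the figures, and stay in the counts.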

Additional observations from a re-analysis of the deposited data

Results flagged for a closer look

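Among 420 sets of 6 libraries (42 named members in 10 groups each), 26 had 1 library whose gap to its nearest neighbour took up most of the range, beyond Dixon's 95% limit for 6 values of 0.625. Chance alone flags about 1 in 20 such sets. All values that follow are CPM. In IP, libraries that lay above the rest of their group were those for Kcnma1 in SA:ANH library 6 (330.5), Kcnh1 in ANH library 1 (108.8), Kcnj12 in NS library 1 (52.74), Kcnh4 in SA library 4 (4.732) and Kcnh4 in SA:ANH library 4 (8.387). In IP, further libraries that lay above the rest of their group were those for Kcnj8 in ANH library 2 (0.4843), Kcnj8 in RES library 1 (1.297), Kcnj8 in NS library 1 (0.2825), Kcne1l in SA library 2 (0.5658) and Kcnab3 in ANH library 4 (13.74). In Input, libraries that lay above the rest of their group were those for Kcnh7 in SA library 6 (27.55), Kcnh7 in ANH library 6 (27.49), Kcng1 in SA:ANH library 4 (55.05), Kcng1 in ANH library 4 (55.33), Kcnj2 in ANH library 6 (7.273) and Kcne1l in SA library 2 (7.998). In IP, libraries that lay below the rest of their group were those for Kcnn2 in SA:ANH library 5 (23.77), Kcnip1 in RES library 1 (6.352) and Kcnb2 in SA:ANH library 1 (28.85). In Input, libraries that lay below the rest of their group were those for Kcna1 in NS library 4 (54.13), Kcnip2 in NS library 5 (63.87), Kcnd2 in SA library 5 (29.85), Kcnh1 in NS library 4 (70.65), Kcnj11 in NS library 2 (12.22) and Kcnj9 in NS library 2 (212). In Input, further libraries that lay below the rest of their group were those for Kcne1l in RES library 5 (3.959).

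The change from NS differed between IP and Input for these members, by the test of that difference (log2 change in IP minus that in Input, edgeR's quasi-likelihood test, adjusted p under 0.05). In SA they were Kcnab2 (-0.3652), Kcnh4 (-1.8191), Kcna1 (-0.5298) and Kcnip2 (-0.4858). In SA:ANH they were Kcng1 (-0.8507), Kcnf1 (-0.5102), Kcna1 (-0.548), Kcnab2 (-0.3228) and Kcnn2 (-0.6833). In ANH they were Kcnf1 (-0.3527), Kcnj12 (-0.7475), Kcnn2 (-0.5751), Kcna1 (-0.3845) and Kcnj9 (-0.2704). In RES they were Kcnf1 (-0.3748), Kcnj9 (-0.2725) and Kcnab2 (-0.2133). The same NS libraries stand behind all 4 sets, and those of Input stood apart from the other groups. With RES as the reference the differences of Kcnab2, Kcnh4 and Kcna1 in SA, of Kcnf1, Kcna1 and Kcnab2 in SA:ANH, and of Kcnj12, Kcnn2 and Kcna1 in ANH no longer passed, and those of Kcnf1 and Kcnj9 in ANH changed sign.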

How the results depend on the processing

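Of 125 recomputed counts of passing members, 114 stayed within 1.5 times the reported count and 11 did not. With DESeq2 the count was 6 in ANH against NS in Input (also 6 with only the 12 libraries compared), 5 in SA against NS in Input and 8 in RES against NS in IP (also 8 with limma voom and library quality weights). For RES against NS, IP minus Input, it was 2 with RLE factors and 1 without the filter on low counts, by edgeR. With RES as the reference, an alternative chosen after seeing the data, the counts were 9 (SA), 11 (SA:ANH) and 2 (ANH) for IP minus Input, and 1 (SA) and 0 (SA:ANH) in Input. Of the 82 members in the last, 9 had an unadjusted p under 0.05 by edgeR's quasi-likelihood test, and no other tool was run for it. Set against RES, 7 named values had the opposite sign to that against NS. In Input these were Kcnh4 (-0.1417 in SA, -0.1417 in SA:ANH and -0.065 in ANH) and Kcnh3 (-0.005 in SA:ANH and -0.0237 in ANH). In ANH, IP minus Input, they were Kcnf1 (0.0221) and Kcnj9 (0.0021). This reference leaves out the NS libraries by construction, so these are changes from RES and not from NS. Of 1703 recomputed values of named members 1616 kept direction and side of the threshold, 69 lost their call and 11 gained one. The cause was not tested for any of these.

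The labels do not say that equal library numbers mark pairs, and they were not treated as pairs in the main tests. The correlation of their deviations had a median of 0.019 in IP (-0.059 to 0.25), 0.044 in Input and 0.041 between IP and Input of equal group and number, against -0.011 for other numbers. Of 30 such pairs 10 were over 0.1, and 11 of 30 libraries correlated best with their own number, a hint from the data, not the design. With the replicate number as a block all 21 counts stayed within 1.5 times (5 against 4 in SA:ANH against NS in Input, for example), and 5 of 282 named values lost their call, among them Kcnf1 in ANH against NS in IP (adjusted p = 0.056 by edgeR). In the fits of both fractions this block was group and number together, which pairs IP with Input. In simulated counts at this depth the SA against NS comparison in IP recovered 36% of genes changed 1.25-fold and 76% of those changed 2-fold. Only a small share of genes was changed there, whereas 16.6% passed in the real comparison, so these rates need not hold for it.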
